A study of Mus musculus with 48 samples.

Results

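Voltage-gated calcium and sodium channels of the cerebral cortex were described through the genes of their subunits in 48 mice, taking every gene whose symbol begins with *Cacna*, *Cacnb* or *Cacng* and a number, or reads *Scn*, a number and a or b. The rule gave 39 genes among the 16952 genes listed in both expression tables. It took no account of their measured levels, though the channel genes were chosen as a list with earlier results of these data known. The mice were 16 B6 mice (C57BL/6J, wild type) and 32 mice of 2 *APOE*-TR lines, in which human *APOE*3 or *APOE*4 stands in place of mouse *Apoe* on the B6 background. Mice of both sexes inhaled filtered air (control) or nPM, the smallest particles collected from city air, during 3 daily sessions of 5 h each week. B6 mice, labelled as 4 months old, were exposed for 8 weeks, and *APOE*-TR mice, labelled as 6 months old, for 15 weeks. Sex, genotype and exposure made 12 groups of 4 mice. B6 and *APOE*-TR mice were exposed and tabulated separately, so strain, duration, age and table cannot be told apart.

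Voltage-gated channels open when the membrane depolarizes and carry the currents on which firing and transmitter release depend. A calcium channel is built on a large pore subunit (*Cacna1* genes) that a cytoplasmic beta subunit (*Cacnb*) and an extracellular alpha2delta subunit (*Cacna2d*) help to reach the membrane. Most brain gamma subunits (*Cacng*) act as TARPs, the partners that carry AMPA glutamate receptors to the synapse. Sodium channels have a similar large pore (*Scn1a* to *Scn11a*) and small beta subunits (such as *Scn2b*, *Scn3b* and *Scn4b*) that tune gating and bind the cell surface. Pores that open at strong depolarization include the L-type (*Cacna1c*, *Cacna1d*), P/Q-type (*Cacna1a*), N-type (*Cacna1b*) and R-type (*Cacna1e*) channels, whereas the T-type pores (*Cacna1g*, *Cacna1h*, *Cacna1i*) open near rest.

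Levels are the CPM of the authors after scaling between mice (TMM), called scaled CPM here. The listed genes held an estimated 2.05 to 24.4 M reads in B6 mice and 17.8 to 31.3 M in *APOE*-TR mice, and the depths of *APOE*-TR females and males did not overlap. *Xist* group means were 201 scaled CPM or higher for females and 0.192 or lower for males, and mouse *Apoe* averaged 206 to 401 in B6 groups and 10.7 to 24.7 in *APOE*-TR groups. The defining markers of cerebellum summed to at most 2.05 scaled CPM in any mouse, those of striatum ranged from 94.7 to 1949, and those of choroid plexus reached 1388 in single mice. For each mouse, log2 levels were taken relative to the mean of each gene over its table and fitted on log2 transcript length. This length slope is thus relative to the table, and B6 and *APOE*-TR mice have different references. In 4 mice it was under -0.2, so longer transcripts were lower there than in the average of the table. They were control mice 61 (-0.61) and 6 (-0.44) of the *APOE*3 females, nPM mouse 55 (-0.24) of the same sex and allele, and control mouse 0 (-0.25) of the B6 males. Control mice 0 and 2 of the B6 males also had the lowest sums of excitatory neuron markers, 186 and 226 scaled CPM, against 717 and 1460 in the other controls of that group. Channel gene calls that leaving out these mice ended are given with and without them, and in whole tissue fewer cells of a type and less RNA per cell cannot be told apart.

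Beta subunits of sodium channels and of calcium channels had high levels for their length. Per kb of the longest transcript, *Scn4b* averaged 66.7 scaled CPM in *APOE*-TR mice (range over 32 mice 13.9 to 125), *Cacnb3* 61.7 (41.8 to 76.99) and *Scn2b* 54.7 (33.1 to 65.1). The ranges of these 3 overlapped, so their order varied between mice. *Cacnb4* (30.3 per kb) and *Cacnb1* (21.9 per kb) followed among the calcium channel beta subunits. Of the pores among the 39 genes, *Scn8a*, the main sodium channel of axon initial segments and nodes, had the highest level per kb (25.7, range 4.74 to 37.03), and *Scn1a*, prominent in inhibitory neurons, came next (18.9, range 13.01 to 24.6). Calcium channel pores were lower. *Cacna1e* averaged 10.2 per kb, *Cacna1b* 7.97 and *Cacna1a* 7.93, with overlapping ranges. The T-type pores *Cacna1i* (7.65 per kb) and *Cacna1g* (5.84) and the L-type pores *Cacna1d* (4.40) and *Cacna1c* (4.12) lay lower still on average, though single mice overlapped.

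Among the gamma subunits, *Cacng3* averaged 25.2 scaled CPM per kb in *APOE*-TR mice and *Cacng7* 13.2. In B6 mice *Cacng7* stood first of all 39 genes, with 104 per kb (range over 16 mice 50.6 to 157). Since the tables were made separately, these levels stand side by side and were not compared. *Cacna2d1*, a target of gabapentin, led the alpha2delta subunits, with 24.5 per kb in *APOE*-TR mice (range 20.3 to 33.02), before *Cacna2d3* with 10.2 (7.28 to 15.4), and these ranges did not overlap. *Scn2a*, a main sodium channel pore of excitatory neurons, was listed under that symbol in the B6 table alone, where the 16 mice had a lowest, median and highest level of 53.2, 101 and 161 scaled CPM. The *APOE*-TR table lists *Scn2a1* (143, 256 and 334 in 32 mice), so neither was among the 39 or ranked per kb.

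**Figure D1:**
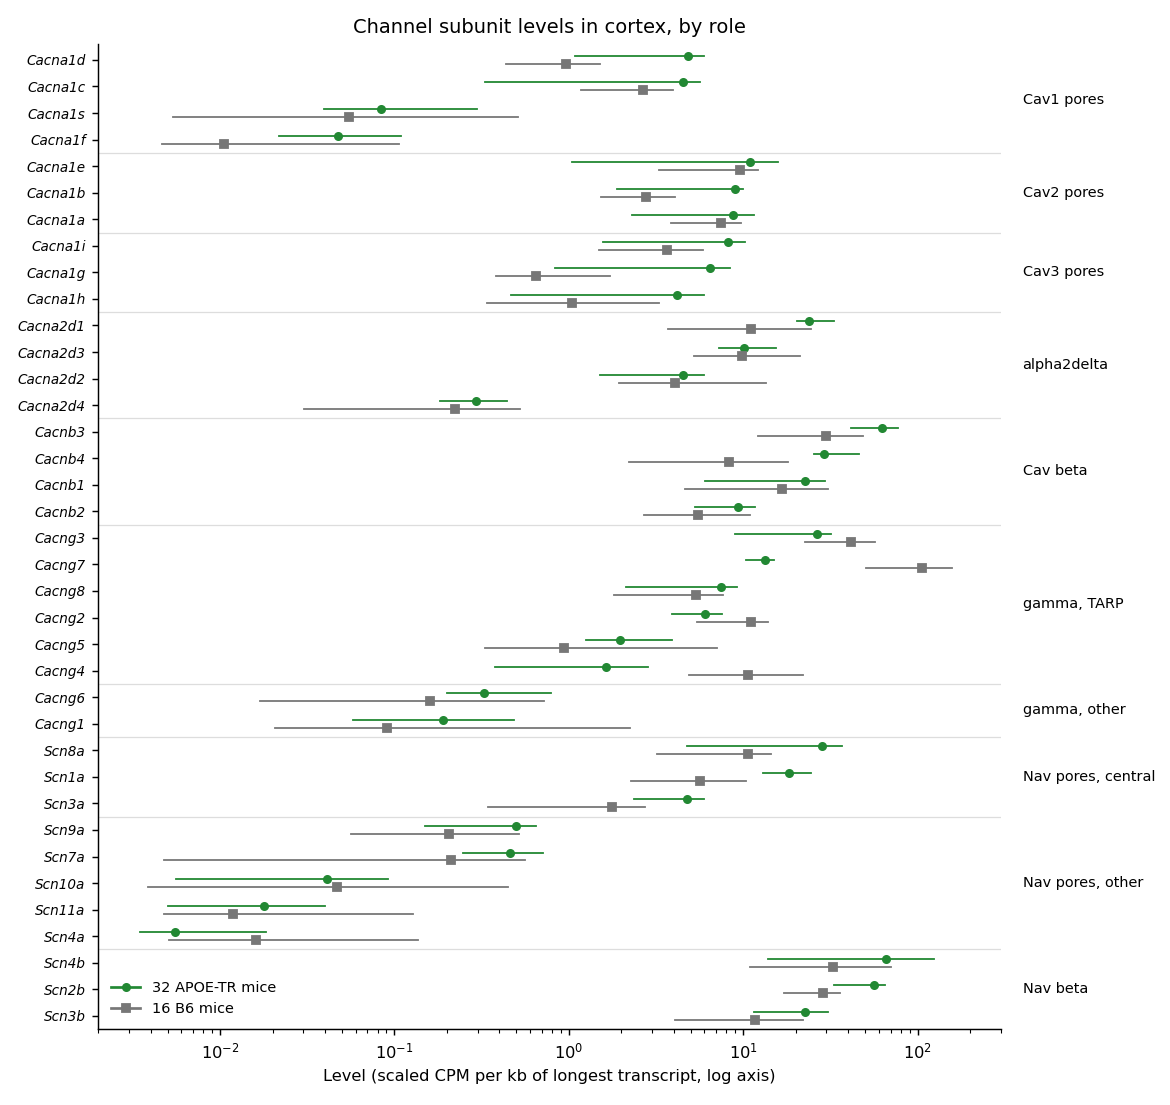
Levels of 37 of the 39 channel subunit genes, grouped by role, as scaled CPM per kb of the longest transcript on a log axis. Symbols are medians and lines run from the lowest to the highest of 32 *APOE*-TR mice (circles) or 16 B6 mice (squares), and in *APOE*-TR mice the means ran from 0.0073 per kb for *Scn4a* to 66.7 per kb for *Scn4b*.

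Subunits known from skeletal muscle, retina and sensory ganglia were at the low end. *Scn4a*, the sodium channel of skeletal muscle, averaged 0.0073 scaled CPM per kb in *APOE*-TR mice and had no reads in 21 of 32 *APOE*-TR and 10 of 16 B6 mice. *Scn11a* and *Scn10a* of pain-sensing neurons had no reads in 3 and 2 *APOE*-TR mice and in 12 and 7 B6 mice. In B6 mice, reads were also absent for *Cacna1f* of the retina in 11 of 16 mice, *Cacng1* in 9, *Cacna1s* in 6, *Cacng6* in 5, *Scn7a* in 3 and *Cacna2d4* in 1. In all, 29 genes had reads in all 48 mice. A gene was tested where every mouse of the comparison had reads, which left 29 to 38 of the 39 by comparison.

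Over all 48 mice, with sex and genotype in the model, the calcium channel beta subunits *Cacnb3* and *Cacnb1* were higher under nPM. They were 2 of the 29 channel genes tested, both upward, at the unadjusted p under 0.005 that the study used for nPM (limma), against 1.48% of the 11087 genes tested. Neither passed a 5% false discovery rate (adjusted p = 0.302 for both), and with the study's own voom code neither was called (log2 changes 0.36 and 0.21 for *Cacnb1* and *Cacnb3*). The median log2 change of the 29 genes was 0.14, against 0.0073 over all genes, and 25 of the 29 had a positive change. A further 4 genes had an unadjusted p under 0.05, among them the T-type pores *Cacna1i* (log2 change 0.35 ± 0.14, SE) and *Cacna1h* (0.38 ± 0.19) and the sodium channel beta subunit *Scn4b* (0.35 ± 0.17). With *Cacnb3* and *Cacnb1*, 6 of the 29 (20.7%) were under 0.05, against 14.4% of all genes.

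The start regions of both called beta subunit genes are shown because the study concerns the antioxidant and NFKB systems, whose factors bind near gene starts. Each runs from 250 bases before to 50 bases after a RefSeq start (GRCm38.p6, the assembly also named mm10), read 5′ to 3′ on the gene's strand. Capitals mark a match, on either strand, to any of 6 motifs, namely TGACNNNGC (antioxidant response element), GGGA, any 4 bases and CC (NFKB-like), TGACGTCA (cAMP response element), GGGCGG (GC box), CCAAT and TATAAA.
*Cacnb1*, chr11:98022578-98022877, minus strand: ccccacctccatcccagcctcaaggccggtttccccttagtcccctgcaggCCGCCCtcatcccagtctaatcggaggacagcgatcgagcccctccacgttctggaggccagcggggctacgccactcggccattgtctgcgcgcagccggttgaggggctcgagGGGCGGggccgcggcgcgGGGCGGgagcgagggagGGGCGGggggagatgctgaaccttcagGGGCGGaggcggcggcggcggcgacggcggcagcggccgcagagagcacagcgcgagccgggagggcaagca
*Cacnb3*, chr15:98632078-98632377, plus strand: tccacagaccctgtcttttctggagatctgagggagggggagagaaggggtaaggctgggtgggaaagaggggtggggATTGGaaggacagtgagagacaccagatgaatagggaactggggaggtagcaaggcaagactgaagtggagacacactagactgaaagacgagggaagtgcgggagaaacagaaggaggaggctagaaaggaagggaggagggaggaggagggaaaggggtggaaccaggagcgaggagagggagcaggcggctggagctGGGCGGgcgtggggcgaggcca
*Cacnb3*, chr15:98634517-98634816, plus strand: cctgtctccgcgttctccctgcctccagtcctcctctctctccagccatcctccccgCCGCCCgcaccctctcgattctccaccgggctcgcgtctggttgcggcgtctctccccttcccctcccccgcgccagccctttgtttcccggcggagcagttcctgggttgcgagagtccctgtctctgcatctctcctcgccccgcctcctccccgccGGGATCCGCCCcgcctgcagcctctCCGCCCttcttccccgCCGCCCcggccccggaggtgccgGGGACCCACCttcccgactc
Both genes have 2 windows in the table. The *Cacnb1* window shown held 5 GC boxes, and its second, chr11:98018323-98018622, held none of the 6 motifs. For *Cacnb3* the first window held 1 GC box and 1 CCAAT match, and the second held 4 GC boxes and 2 NFKB-like matches. None of these 4 windows held the antioxidant letters. Of the 39 genes, 29 matched the RefSeq table by symbol, with 39 windows. Of the 39 windows, 16 held GC boxes, 13 the NFKB-like letters, 10 CCAAT, 4 the antioxidant letters, 1 TATAAA and 0 TGACGTCA. Among all 32851 windows of the same length the shares were 35.7%, 20.7%, 37.4%, 12.4%, 13.6% and 1.79%, and matches of the NFKB-like motif and the GC box can overlap.

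*Cacnb1* encodes a beta subunit of skeletal muscle and brain channels. In B6 females its 4 control levels were 23.6, 22.8, 15.8 and 34.5 scaled CPM, and its 4 levels under nPM were 43.1, 54.7, 57.2 and 56.5. Every exposed female lay above every control, with means of 52.9 ± 6.6 and 24.2 ± 7.72 (SD, n = 4 each). The log2 change was 1.16 ± 0.22 (SE, limma, unadjusted p = 0.00016, adjusted p = 0.276), and the exact two-sided permutation p was 0.0286, the smallest that 4 against 4 mice can give. In B6 males the control levels were 58.2, 51.1, 68.9 and 81.2 and the nPM levels 104, 66.99, 57.7 and 90.5, which overlapped (log2 change 0.28 ± 0.23, exact permutation p = 0.314). Control B6 females thus lay below all other B6 mice for this gene. *APOE*3 female controls had 65.6, 20.4, 71.1 and 28.03, where 20.4 and 28.03 are the values of mice 61 and 6, and their nPM group had 55.5, 74.4, 92.9 and 76.7 (log2 change 0.86 ± 0.40, exact permutation p = 0.143).

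The remaining *APOE*-TR groups were close together for *Cacnb1*, with group means between 72.9 and 88.6 scaled CPM and log2 changes under nPM of 0.071 ± 0.078 and 0.080 ± 0.072 in *APOE*3 and *APOE*4 males and of 0.14 ± 0.10 in *APOE*4 females. The change was thus positive in 6 of 6 pairs of groups, while B6 females alone passed the test among them. The response of females minus that of males, over the 3 genotypes, was 0.57 ± 0.19 (limma, n = 48, p = 0.0047, adjusted p = 0.246). It was 0.38 without the 4 mice of low length slope and no longer passed, and with single mice left out it passed in 15 of 48 fits (0.47 to 0.66).

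*Cacnb3*, a beta subunit abundant in brain, had control levels of 62.7, 74.9, 80.1 and 70.6 scaled CPM in B6 females and nPM levels of 82.01, 95.9, 134 and 88.8, which did not overlap. In B6 males the controls had 38.3, 33.3, 88.8 and 78.2 and the nPM mice 109, 81.5, 109.5 and 87.6. The first 2 controls are the mice lowest in excitatory neuron markers and highest in thalamus markers. Over 48 mice the log2 change was 0.30 ± 0.08 (limma, n = 48, p = 0.00085). Without these 2 controls it was 0.21 ± 0.06 and that of *Cacnb1* 0.44 ± 0.13, both still called, while 1.09% of all genes were called. In the 16 B6 mice alone, *Cacnb1* (0.72 ± 0.19, limma, n = 16, p = 0.00090) and *Cacnb3* (0.63 ± 0.18, p = 0.0022) were again the 2 channel genes called of 29, against 0.533% of all genes. In the 32 *APOE*-TR mice alone their log2 changes were 0.29 ± 0.13 and 0.13 ± 0.06. There 0 of 36 channel genes were called by limma, with 0.695% of all genes called. An unadjusted p under 0.05 was found for 13 of the 36. The share of all genes was not counted at that threshold, so the 13 cannot be read as more or fewer than among all genes.

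**Figure D2:**
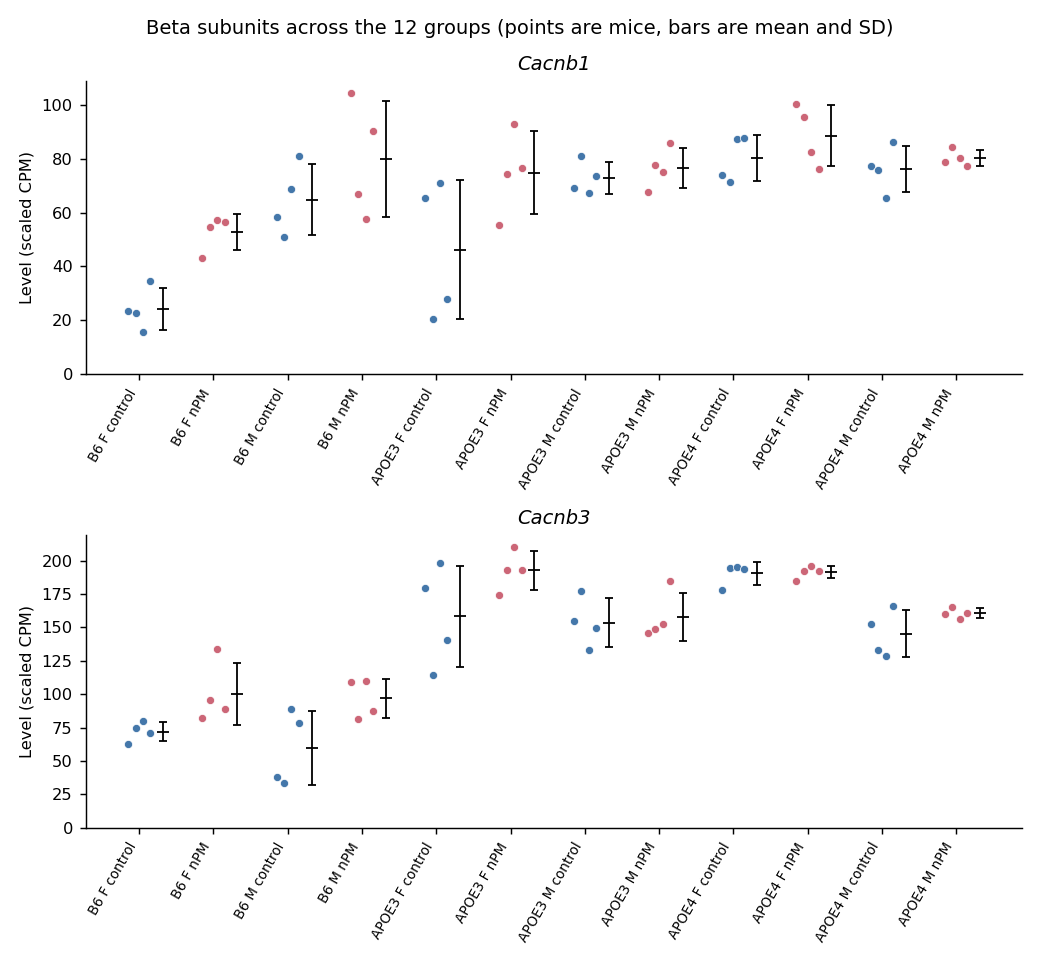
*Cacnb1* and *Cacnb3* levels in scaled CPM in each of the 12 groups (F, female and M, male). Points are mice, blue for control and red for nPM, and bars are the mean and SD of 4 mice. In B6 females the 4 *Cacnb1* levels under nPM (mean 52.9) lie above the 4 control levels (mean 24.2).

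Within each pair of groups few channel genes passed the test for nPM. In B6 females *Cacnb1* was the 1 gene of 30 tested, with 1.21% of all genes called. Groups did not overlap for 2 of the 30, *Cacnb1* and *Cacnb3*, as for 6.58% of all genes. They overlapped for every channel gene tested in B6 males, in *APOE*3 mice of either sex (females, then males) and in *APOE*4 females, where 2.23%, 6.88%, 1.42% and 3.49% of all genes did not overlap. In B6 males 1 of 30 was called against 0.24% of all genes, *Cacna2d2*, an alpha2delta subunit. By limma 0 were called of 36 tested in *APOE*3 females, 0 of 37 in the males of that allele and 0 of 37 in *APOE*4 females, against 0.665%, 0.154% and 0.272% of all genes. At an unadjusted p under 0.05 there were 6, 2 and 5, against 21.1%, 2.22% and 5.59% of all genes. In *APOE*4 males 1 of 38 was called, against 0.178%. Groups did not overlap for 2 of these 38, *Cacna1i* among them, as for 2.44% of all genes. No channel gene passed a 5% false discovery rate in any of these 6 comparisons.

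*Cacna2d2* had 64.8, 78.5, 22.9 and 46.1 scaled CPM in the B6 male controls and 20.2, 30.2, 11.3 and 20.2 under nPM. The highest nPM level lay above the lowest control, and the other 3 controls lay above all nPM mice. The log2 change was -1.29 ± 0.37 (limma p = 0.0036, adjusted p = 1.00, exact permutation p = 0.0571), and the call held in 2 of 8 fits with 1 mouse left out. The controls with 64.8 and 78.5 are the 2 that were lowest in excitatory neuron markers and highest in thalamus markers. The inhibitory neuron markers of these 2 controls summed to 974 and 1048 scaled CPM, against 450 and 683 in the other controls and 417 to 593 under nPM. Without these 2 controls no channel gene was called in B6 males, where 0.177% of all genes were, and the log2 change of *Cacna2d2* was -0.73 ± 0.38. Without control 0 alone, the mouse of low length slope, it was -1.15 and not called. B6 females went the other way, from 15.4, 14.7, 13.6 and 26.7 to 40.2, 22.9, 26.3 and 24.1 (log2 change 0.69 ± 0.26, exact permutation p = 0.114). In the 4 pairs of *APOE*-TR groups its log2 changes lay between -0.040 and 0.34, with no call. The response of females minus that of males over the 3 genotypes was 0.79 ± 0.23 (limma, n = 48, p = 0.0011, adjusted p = 0.219). It was 1 of 2 genes of 29 called in that test, with *Cacnb1*, against 1.98% of all genes. Without the 2 B6 male controls the difference for *Cacna2d2* was 0.61 and did not pass, nor did it without the mice of low slope, at 0.61.

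In *APOE*3 females the median change under nPM was 0.30 over the 36 channel genes tested, against -0.0073 over all genes. The change was positive in 30 of the 36 and in 49.1% of all genes. At an unadjusted p under 0.05 were 16.7% of the channel genes and 21.1% of all genes. Those channel genes included the P/Q-, N- and T-type pores *Cacna1a* (log2 change 0.89 ± 0.34), *Cacna1b* (1.03 ± 0.39) and *Cacna1g* (1.54 ± 0.58). The L-type pore *Cacna1d* (0.97 ± 0.34) and *Scn8a* (1.18 ± 0.44) were also among them. Mice of the same group differed widely. *Cacna1a* had 33.8, 18.99, 35.9 and 18.3 scaled CPM in controls and 26.3, 64.6, 64.1 and 47.1 under nPM, and *Scn8a* had 164, 54.2, 157 and 62.8 and 125, 301, 303 and 207. For both genes control mice 61 and 6 had the lowest levels, and nPM mouse 55 had the lowest of its group.

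These are the mice of low length slope, and most pore transcripts are long. The median log2 level of the 29 channel genes with reads throughout, relative to the mean of its table, was -1.27 in control mouse 61, -1.25 in control mouse 6 and -0.57 in nPM mouse 55, and it was between -0.17 and 0.32 in the other mice apart from B6 male control 0 (-0.34). Channel genes with transcripts of 6 kb or more had a median log2 change of 0.57 under nPM in *APOE*3 females (18 genes), against 0.36 over all genes of that length. Shorter channel genes had 0.30 (18 genes), against -0.047. With the length slope as a covariate the median of the 36 genes was -0.017 and 0 were called by limma, with 0.61% of all genes called. An unadjusted p under 0.05 was found for 4 of the 36. The share of all genes was not counted at that threshold, so the 4 cannot be read as more or fewer than among all genes.

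Without these 3 mice, 2 controls remained against 3 nPM mice, and 8 of 36 channel genes were called in *APOE*3 females, where 5.17% of all genes were. The 7 that were higher were pores, *Cacna1a* (log2 change 0.73 ± 0.14), *Cacna1b* (0.62 ± 0.15), *Cacna1c* (0.63 ± 0.15), *Cacna1g* (0.87 ± 0.19), *Cacna1h* (0.48 ± 0.13), *Cacna1i* (0.62 ± 0.12) and *Scn8a* (0.73 ± 0.16). *Cacng1*, a subunit of muscle channels at trace level here, was lower (-0.62 ± 0.16). The median over the 36 genes was then 0.094. The controls kept had length slopes of -0.12 and -0.16, below those of the nPM mice kept (-0.0099, -0.014 and -0.090). Length slope and exposure thus cannot be told apart in this fit. The allele difference of the nPM response in females (*APOE*4 minus *APOE*3) had a median of -0.19 over 36 channel genes. By limma 0 were called, with 3.76% of all genes called. At an unadjusted p under 0.05 were 10 of the 36 (27.8%), all below 0, against 29.4% of all genes. In males 0 of 36 were called (0 at p under 0.05), with 0.0313% of all genes called.

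**Figure D3:**
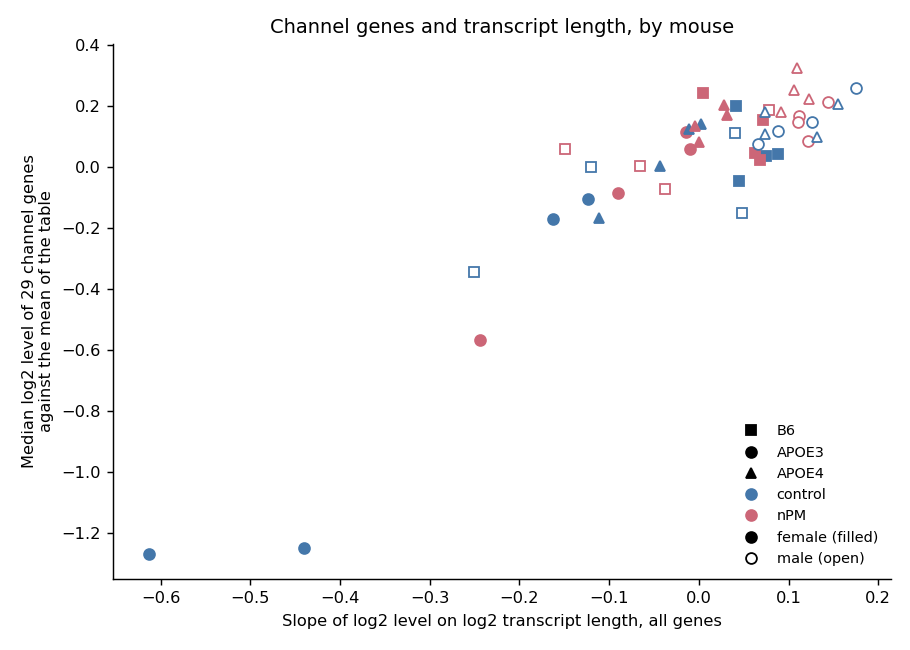
Median log2 level of 29 channel genes relative to the mean of its table (y axis), for each of 48 mice. The x axis is the slope on log2 transcript length of log2 level, with each gene taken relative to its mean over the table. Symbols give genotype, colours the exposure and filling the sex. Control mice 61 and 6 of the *APOE*3 females sit apart, at -1.27 and -1.25, and nPM mouse 55 and B6 male control 0 lie between them and the other mice.

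The pattern of *Cacnb1* over mice, after taking away group means, was most like those of the T-type pores *Cacna1i* (Pearson's r = 0.79) and *Cacna1h* (0.77) and of *Cacna1b* (0.74), described over 48 mice. The mice behind these values differ in length slope. Over the 44 mice without low slopes r was 0.65, 0.52 and 0.42 for the same genes, and *Cacna1a* (0.50) and *Cacna1g* (0.48) then stood before *Cacna1b*.

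*Cacna1i*, the T-type pore of thalamic and cortical cells that the study names, followed the same mice. *APOE*3 female controls had 45.6, 15.3, 50.4 and 18.4 scaled CPM and their nPM group 28.1, 74.2, 84.5 and 64.4, with mouse 55 lowest (log2 change 1.02 ± 0.47, exact permutation p = 0.143). *APOE*4 females had 69.96, 77.96, 88.3 and 88.4 in controls and 95.6, 100.1, 81.2 and 76.7 under nPM (0.12 ± 0.10). B6 females had 33.1, 34.8, 19.9 and 37.2 in controls and 26.5, 57.6, 36.98 and 37.7 under nPM (0.33 ± 0.26). In *APOE*4 males the nPM levels of 87.1, 87.6, 87.7 and 88.4 lay above the control levels of 75.2, 86.3, 77.5 and 86.1 without overlap (0.11 ± 0.05, exact permutation p = 0.0286). Its change was positive in 6 of 6 pairs of groups and passed the test in 0 of them (limma).

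For the *APOE* allele, the 48-mouse model called 1 of 29 channel genes, *Cacna1i*, higher in *APOE*4 by 0.54 ± 0.17 (limma, n = 48, p = 0.0027, adjusted p = 0.247), against 1.89% of all genes. No channel gene passed a 5% false discovery rate there, where 0.379% of all genes did. At an unadjusted p under 0.05 were 12 (41.4%), all higher in *APOE*4, against 15.1% of all genes. The median over the 29 was 0.30, against 0.011 over all genes. Within pairs of groups the channel gene median was 0.41 in control females and 0.26 in females under nPM. It was -0.020 in control males and 0.067 in males under nPM. Over 48 mice, channel genes of 6 kb or more had a median of 0.38, against 0.14 over all genes of that length. Shorter channel genes had 0.16, against -0.0096. Without the mice of low length slope the difference for *Cacna1i* was 0.21 and with the length slope as a covariate 0.26, and it was not called in either. With 1 mouse left out, the *Cacna1i* difference ran from -0.029 to 0.049 in control males and from -0.027 to 0.15 in males under nPM. It ran from 1.20 to 1.76 in control females and from 0.25 to 0.77 in females under nPM, so it lay mainly in females.

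*Scn7a* and *Cacng6* had no reads in some B6 mice and are not in that model, so the 32 *APOE*-TR mice were also fitted alone (16 *APOE*3 against 16 *APOE*4, with sex and nPM in the model). This fit was planned as an alternative, and it is given as a comparison of its own after its values were seen. It called 7 of 36 channel genes, with 8.35% of all genes called. Higher in *APOE*4 were the pores *Cacna1a* (log2 difference 0.42 ± 0.14), *Cacna1i* (0.54 ± 0.17), *Scn1a* (0.24 ± 0.06) and *Scn3a* (0.22 ± 0.07), the last known for its use early in development. Lower were *Scn7a* (-0.50 ± 0.07), *Cacng6* (-0.39 ± 0.08) and *Cacna2d1* (-0.15 ± 0.05). Of these, *Scn7a* (adjusted p = 2.4e-05), *Cacng6* (0.0049), *Scn1a* (0.013) and *Cacna2d1* (0.046) passed a 5% false discovery rate, as did 5.94% of the 15971 genes tested. Without the mice of low length slope 4 were still called, *Cacna1i* (0.22), *Scn1a* (0.25), *Scn7a* (-0.45) and *Cacng6* (-0.38), while *Cacna1a* (0.19), *Scn3a* (0.14) and *Cacna2d1* (-0.090) were not. With each of the 32 mice left out in turn, *Cacna1a* was called in 14 fits, *Cacna1i* in 20 and *Scn3a* in 10, and the other 4 genes in all 32. The *Cacna1i* difference lay mainly in females, as given above. For *Cacna1a*, control males had 77.5, 74.8, 69.3 and 68.4 scaled CPM in *APOE*3 and 70.8, 70.9, 78.96 and 74.8 in *APOE*4, which overlapped.

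*Scn7a* encodes a relative of the sodium channels that responds to sodium concentration rather than voltage and is found mainly in glia and a few kinds of neurons. It lies on chromosome 2 (mm10, chr2:66673426-66784911, minus strand), in the cluster that also holds *Scn3a*, *Scn1a* and *Scn9a*. Its start region is shown because it had the smallest p of the channel genes in that fit, in the same form as above.
*Scn7a*, chr2:66784861-66785160, minus strand: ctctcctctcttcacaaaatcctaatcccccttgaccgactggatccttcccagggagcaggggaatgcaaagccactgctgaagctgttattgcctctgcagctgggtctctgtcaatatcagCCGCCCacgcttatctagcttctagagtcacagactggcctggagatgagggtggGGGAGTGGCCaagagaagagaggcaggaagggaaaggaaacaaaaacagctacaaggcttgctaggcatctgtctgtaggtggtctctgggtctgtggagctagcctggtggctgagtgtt
The capitals mark 1 GC box and 1 NFKB-like match.

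Over the 16 *APOE*3 mice *Scn7a* had a lowest, median and highest level of 3.14, 3.96 and 5.24 scaled CPM, and over the 16 *APOE*4 mice 1.82, 2.71 and 3.65. All 16 *APOE*4 mice lay below the *APOE*3 median, and 3 of them lay above the lowest *APOE*3 mouse. These levels rest on 66 to 161 reads per mouse. In control females *APOE*3 mice had 3.74, 5.24, 3.56 and 4.5 and *APOE*4 mice 2.26, 2.63, 2.15 and 2.31, with no overlap (log2 difference -0.74 ± 0.14, limma p = 0.00065, adjusted p = 0.0765, exact permutation p = 0.0286). In females under nPM the levels were 4.28, 4.35, 4.03 and 4.21 against 2.95, 3.65, 2.82 and 2.61, again without overlap (-0.43 ± 0.11, limma p = 0.0031, exact permutation p = 0.0286), and without *APOE*3 mouse 55, of low length slope, the difference was -0.43 and not called. Males under nPM had 3.4, 3.89, 3.14 and 3.32 against 2.16, 2.13, 1.82 and 3.17 (-0.50 ± 0.14, limma p = 0.0036, exact permutation p = 0.0571), and 1 *APOE*4 mouse reached the *APOE*3 range. Control males had 4.02, 3.69, 4.39 and 3.41 against 3.43, 2.83, 2.97 and 2.79 (-0.32 ± 0.10, limma p = 0.010, exact permutation p = 0.0571), which did not pass the threshold of 0.005.

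The difference was thus negative in 4 of 4 pairs of groups and called in 3. With 1 mouse left out the call held in 8 of 8 fits for control females, in 1 of 8 for females under nPM (without *APOE*4 mouse 23) and in 2 of 8 for males under nPM (without *APOE*3 mouse 58 or *APOE*4 mouse 93). The 32-mouse estimate stayed between -0.52 and -0.47 when each mouse was left out, and was called each time. It was -0.45 with the length slope as a covariate and -0.45 without the mice of low slope. All 7 astrocyte markers had a difference below 0 in the 32-mouse fit (median -0.18), 4 of them at an unadjusted p under 0.05. The 2 that were called were the water channel *Aqp4* (-0.43 ± 0.08, limma adjusted p = 0.00060) and the gap junction gene *Gja1* (-0.18 ± 0.06, adjusted p = 0.048). The summed astrocyte markers ran from 3498 to 4793 scaled CPM over *APOE*3 mice and from 3456 to 4674 over *APOE*4 mice. In males under nPM 4 of 6 endothelial markers were called lower in *APOE*4, *Flt1* (-0.54), *Pecam1* (-0.36), *Tek* (-0.36) and *Slco1a4* (-0.28), and the summed list ran from 125 to 137 scaled CPM in *APOE*3 and from 92.7 to 108 in *APOE*4. In the 32-mouse fit 0 of the 6 were called by limma (0 at an unadjusted p under 0.05), and all 6 were below 0. The part of either marker list in the *Scn7a* result was not tested. Under nPM *Scn7a* was not called in any pair of *APOE*-TR groups. Its log2 change was 0.30 ± 0.12 in *APOE*4 females and -0.33 ± 0.14 in males of that allele, both at an unadjusted p under 0.05.

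Within 2 Mb of *Scn7a*, 13 other genes were tested in the 32-mouse fit and 4 were called, against 8.35% of all genes. This window was chosen after the values were seen. Higher in *APOE*4 were *Scn1a*, *Scn3a* and *Gm13629* (0.26 ± 0.08), a predicted gene 0.04 kb from *Scn1a*, and lower was *Xirp2* (-0.58 ± 0.12), a muscle cytoskeleton gene. *Scn1a* had a lowest, median and highest level of 109, 142 and 203 scaled CPM over *APOE*3 mice and 144, 171 and 207 over *APOE*4 mice. In females under nPM it was also called alone, from 128, 147, 128 and 126 in *APOE*3 to 144, 173, 164 and 175 in *APOE*4 (0.31 ± 0.09, limma p = 0.0045, exact permutation p = 0.0571), with the lowest *APOE*4 mouse just under the highest *APOE*3 mouse, and the call held in 3 of 8 fits with 1 mouse left out. *Scn9a*, a pore of sensory neurons in the same cluster, had a difference of 0.31 ± 0.11 (limma, n = 32, p = 0.0087) and was not called.

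*Cacng6* encodes a gamma subunit known from muscle calcium channels and lies beside *Cacng8* and *Cacng7* on chromosome 7 (mm10, chr7:3424662-3435668, plus strand), 16.3 Mb from *Apoe*. Its levels rest on 10 to 41 reads per mouse. The 16 *APOE*3 mice had a lowest, median and highest level of 0.508, 0.874 and 1.56 scaled CPM and the 16 *APOE*4 mice 0.394, 0.550 and 1.04, with 15 *APOE*4 mice below the *APOE*3 median. Control females had 1.56, 1.15, 0.769 and 0.856 in *APOE*3 and 0.573, 0.69, 0.514 and 0.456 in *APOE*4, without overlap (log2 difference -0.56 ± 0.16, limma p = 0.0080, exact permutation p = 0.0286). In males the group means were 0.728 ± 0.303 and 0.507 ± 0.101 in controls (SD, n = 4). Of its neighbours, *Cacng7* (0.090 ± 0.044) and *Cacng8* (0.32 ± 0.12) were not called. Among the 57 genes tested within 2 Mb, 11 (19.3%) were called, against 8.35% of all genes. A 5% false discovery rate was passed by 9 of the 57, against 5.94% of all genes. The smallest p were those of *Rdh13* (-0.65 ± 0.05) and *Eps8l1* (1.29 ± 0.11).

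*Cacna2d1* had a lowest, median and highest level of 168, 183 and 246 scaled CPM over *APOE*3 mice and 151, 172 and 196 over *APOE*4 mice. The 2 highest levels were those of *APOE*3 control females 61 and 6.

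**Figure D4:**
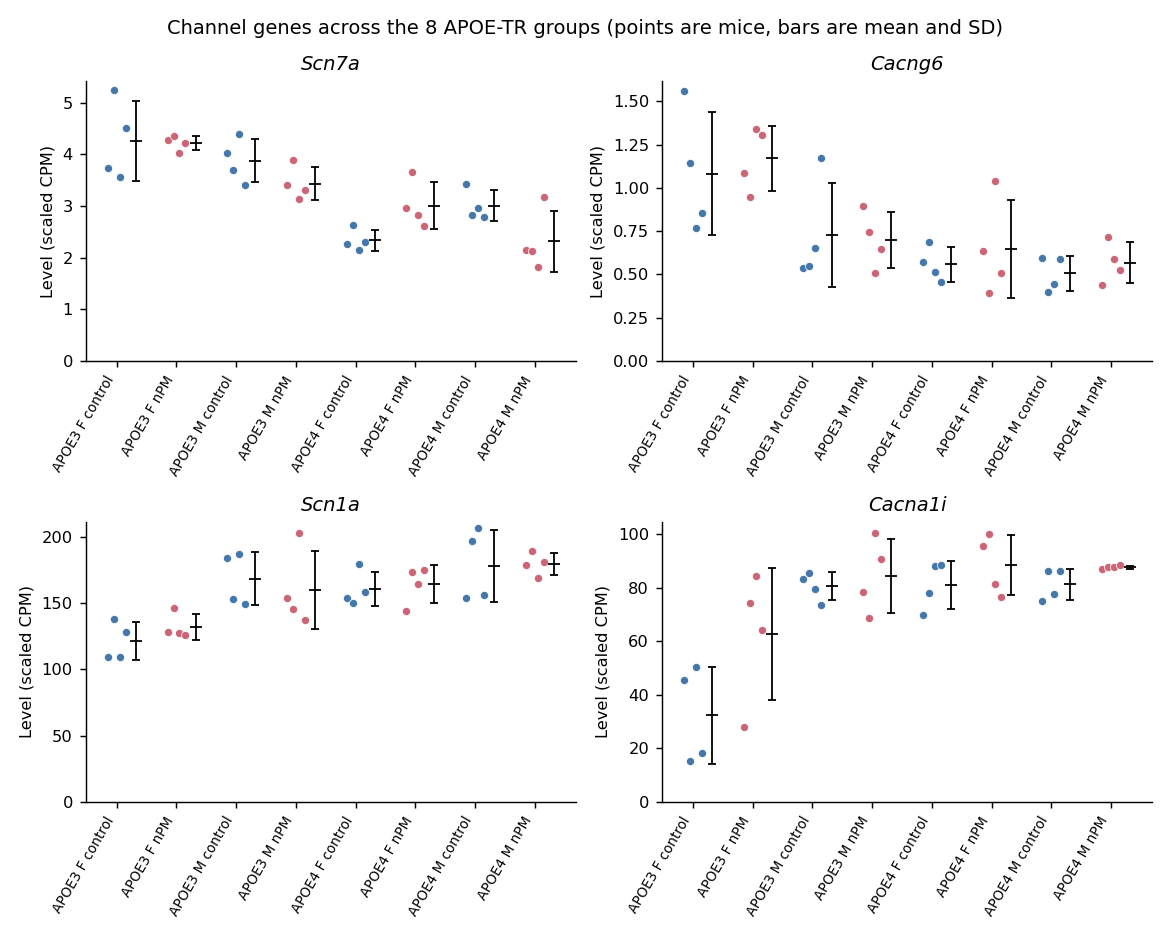
*Scn7a*, *Cacng6*, *Scn1a* and *Cacna1i* levels in scaled CPM in each of the 8 *APOE*-TR groups. Points are mice, blue for control and red for nPM, and bars are the mean and SD of 4 mice. *Scn7a* and *Cacng6* sit lower in *APOE*4 groups (medians 2.71 and 0.550 against 3.96 and 0.874), and the lowest *Cacna1i* levels are those of *APOE*3 females.

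Control females held most of the allele calls made in pairs of groups. Between *APOE*4 and *APOE*3 control females 6 of 37 channel genes were called, against 5.86% of all genes, and their groups did not overlap for 13 of 37, as for 29.1% of all genes. The 5 that were higher in *APOE*4 included *Cacna1a* (log2 difference 1.23 ± 0.25), *Scn8a* (1.46 ± 0.37), *Cacna1i* (1.49 ± 0.37) and *Cacna1d* (1.12 ± 0.29), and *Scn7a* was lower, each at an adjusted p of 0.0765 (limma). No channel gene passed a 5% false discovery rate, which 0.231% of all genes did, and edgeR on recovered reads called 2 channel genes in place of 6. With 1 mouse left out the count ran from 2 (without *APOE*4 control 21) to 14 (without *APOE*3 control 52). *Cacna1a* and *Scn7a* were called in 8 of 8 such fits, and *Cacna1d*, *Cacna1i* and *Scn8a* in 2 of 8 each. The *APOE*3 control females are also the controls of the nPM comparison in *APOE*3 females given above, so the values of both comparisons share 4 mice.

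*Scn8a* had 164, 54.2, 157 and 62.8 scaled CPM in *APOE*3 control females and 232, 246, 303 and 297 in *APOE*4 control females. *Cacna1d* had 23.2, 9.38, 20.4 and 11.5 against 26.02, 30.3, 38.4 and 40.6, and *Cacna1a* had 33.8, 18.99, 35.9 and 18.3 against 48.6, 57.2, 69.02 and 70.6. None of these 3 genes overlapped between the groups, and mice 61 and 6 were lowest for each. Without these 2 mice 8 of 37 were called, with 6.69% of all genes called, and 4 passed a 5% false discovery rate (*Cacna1a* 0.79 ± 0.14, *Cacna1i* 0.75 ± 0.11, *Scn1a* 0.55 ± 0.09, *Scn8a* 0.74 ± 0.12). The others were *Cacna1b*, *Cacna1c*, *Cacng3* and, lower, *Scn7a*, and *Cacna1d* (0.60) was no longer called. The 2 *APOE*3 controls kept had length slopes of -0.12 and -0.16, still below those of all *APOE*4 controls (-0.11 to 0.0023). Length slope and allele thus cannot be told apart in this fit either. With the length slope as a covariate 2 were called (*Cacna1a* 0.62 ± 0.17 and *Scn1a* 0.59 ± 0.10), with 2.12% of all genes called, and the median over the 37 genes was -0.065 in place of 0.41. The slopes of all *APOE*3 controls (-0.61 to -0.12) lay below those of the *APOE*4 controls, so the covariate separates slope from allele poorly. Channel genes of 6 kb or more had a median difference of 0.87 here, against 0.42 over all genes of that length, and shorter ones 0.32, against -0.047.

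In control males 0 of 37 channel genes were called by limma, against 1.36% of all genes. An unadjusted p under 0.05 was found for 2, both lower, against 5.81% of all genes. The groups overlapped for every one of the 37, whereas 3.76% of all genes did not overlap. In females under nPM 2 of 37 were called, *Scn1a* and *Scn7a*, against 1.14%, and in males under nPM *Scn7a* alone of 38, against 1.95%. Groups did not overlap for 5 of 37 in females under nPM (5.84% of all genes), among them *Cacna2d2*, *Scn3a* and *Scn9a*, higher in *APOE*4, and *Scn7a*, lower. In males under nPM this held for 0 of 38, against 5.72%. No channel gene passed a 5% false discovery rate in these 3 comparisons, which 0.433%, 0.145% and 0.475% of all genes did.

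**Figure D5:**
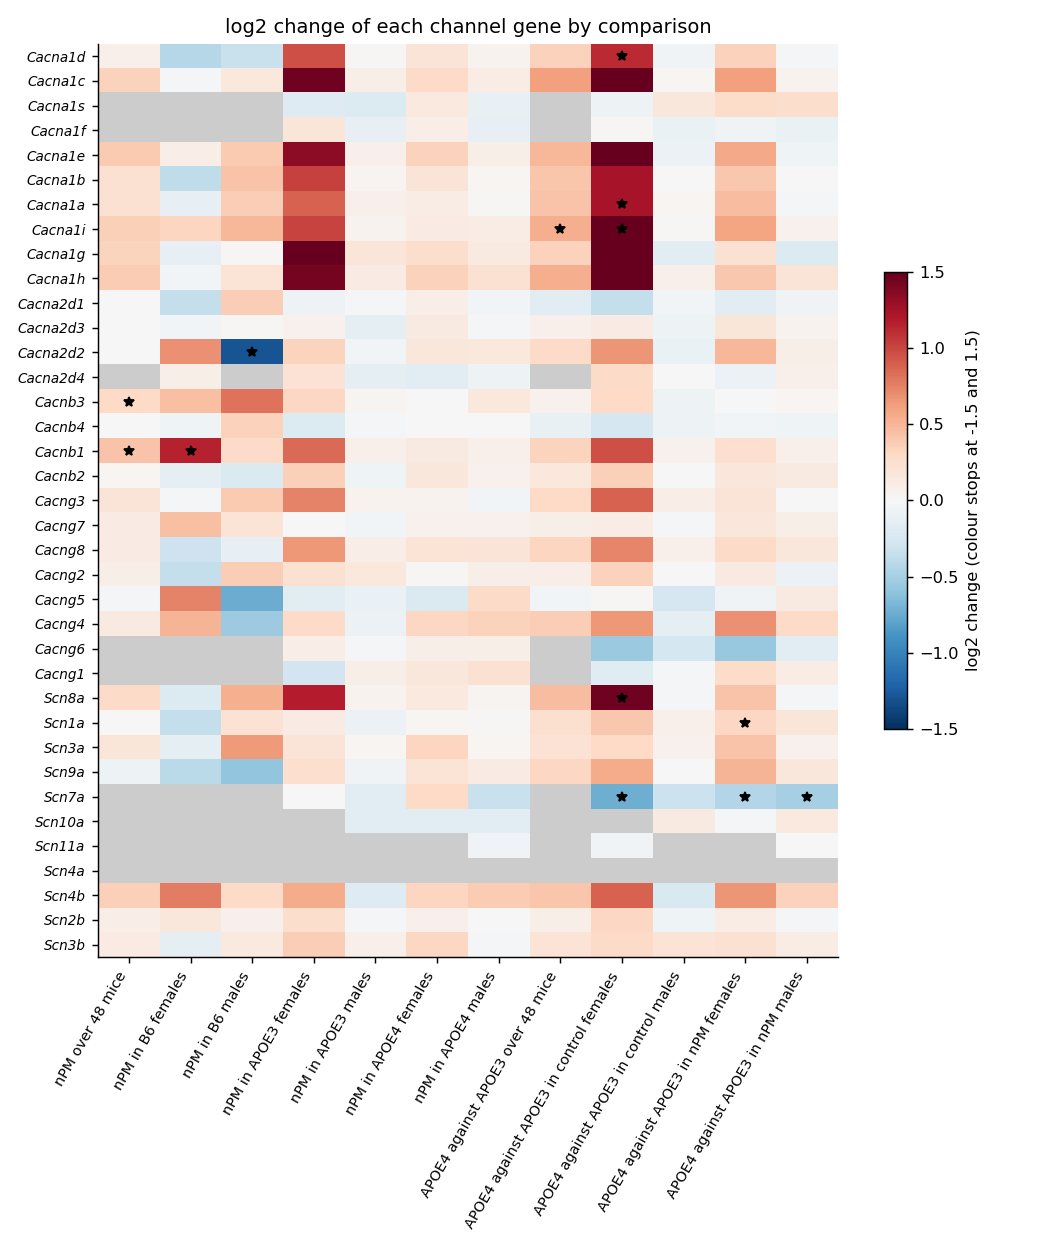
Log2 change of 37 of the 39 channel genes (rows, by role) in 12 comparisons (columns), nPM against control and *APOE*4 against *APOE*3. Red is higher and blue lower, the colour stops at 1.5 in both directions, grey marks a gene not tested and stars mark an unadjusted p under 0.005. The 5 stars of the control females (4 red, 1 blue) contrast with 0 in control males.

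*Scn4b*, known for its high level in striatal neurons, varied widely between mice. In *APOE*3 control females it had 362, 94.4, 360.0 and 69.1 scaled CPM, and in *APOE*4 females under nPM 621, 404, 499 and 199. The summed striatal markers of the latter 4 mice were 1593, 896, 1207 and 292 scaled CPM, in the same order of size. For the *APOE*3 controls they were 1204, 657, 1127 and 291. Their part in the *Scn4b* levels was not tested, and *Scn4b* was not called in any comparison.

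Genes that work with the channels were taken from a list of 31 (anchoring, regulatory and release-site proteins). For nPM, 0 of 27 tested were called over 48 mice by limma (4 at an unadjusted p under 0.05, all higher, against 14.4% of all genes). In the 6 pairs of groups 1 was called, *Camk2b*, a calcium/calmodulin kinase subunit, in B6 females (log2 change 0.54 ± 0.14). Over the 32 *APOE*-TR mice 3 of 31 were higher in *APOE*4 and 0 lower, *Ank3* (0.24 ± 0.07), which anchors sodium channels at the axon initial segment, *Camk2b* (0.20 ± 0.06) and *Nalcn* (0.14 ± 0.04), the sodium leak channel. Of 19 genes of calcium release and clearance, 3 were higher and 0 lower in that fit, the plasma membrane pump *Atp2b2* (0.31 ± 0.10), the exchanger *Slc8a3* (0.40 ± 0.12) and the store sensor *Stim1* (0.24 ± 0.08). For nPM 0 of the 19 were called by limma in any pair of groups, while 3 in B6 females, 4 in *APOE*3 females and 3 in *APOE*4 females had an unadjusted p under 0.05. The shares of all genes at that threshold were 10.5%, 21.1% and 5.59%. Both shares of the allele fit can be read against the 8.35% of all genes called there.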

How the data were processed

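RNA of cerebral cortex from 48 mice (12 groups of 4) was sequenced. The authors deposited CPM (read counts scaled to library size) in separate tables for B6 and *APOE*-TR mice, with 27086 and 18943 genes after 4 repeated listings per table were left out. Libraries were made with a stranded kit (TruSeq). Reads were mapped with TopHat2 (2.0.8b) and quantified against RefSeq mm10 in Partek Flow, keeping reads with 1 place in the genome and at most 3 mismatches. Whether the counting used strand is not given in the sources used here, so antisense neighbours cannot be told apart. Reads were recovered from the steps of low CPM values (96.1 to 97.1% whole in *APOE*-TR mice and 87.7 to 98.4% in B6 mice, within 0.1 of a read).

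CPM were scaled within each table by TMM (edgeR 4.0.16), and log2(CPM + 0.5) was fitted with limma 3.58.1 (eBayes with trend, R 4.3.3) on all genes with reads in every mouse of a comparison. Fold changes are on that log2 scale, which understates those of low genes. P-values were adjusted by Benjamini-Hochberg over all genes tested. Fits over 48 mice had terms for sex, genotype and nPM. Calls used an unadjusted p under 0.005. Single genes were also tested by exact two-sided permutation of 70 labelings. The scripts were tested on simulated data. Each mouse is 1 library, and 1 column of the *APOE*3 control females (mouse 6) was assigned by its group name, since its animal number matches no sample label. Results for 2 channel genes are not reported here, though counts and medians include them. The channel genes, lists and tests were chosen with earlier results of these data known. Genes given with values per mouse are, apart from these 2, those called (at most 6 per comparison), *Cacnb1* and *Cacna1i*, the leading genes of each role, and those without reads. Alternatives were another pseudocount (2 CPM), no filter, no TMM, the study's voom code (ComBat from sva 3.50.0), a length covariate, edgeR on recovered reads, B6 or *APOE*-TR mice alone and leaving out mice.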

Additional observations from a re-analysis of the deposited data

Results flagged for a closer look

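The response of *Cacna2d2* to nPM, taken over the 3 genotypes, was 0.79 higher in females than in males on the log2 scale (limma, n = 48, p = 0.0011, adjusted p = 0.219), and that of *Cacnb1* was 0.57 higher (p = 0.0047, adjusted p = 0.246). With 1 mouse left out the first held in 48 of 48 fits and the second in 15 of 48, and neither passed without the mice of low length slope. For *Cacna2d2* the pairs of groups went from -1.29 in B6 males to 0.69 in B6 females, and for *Cacnb1* from 0.071 in *APOE*3 males to 1.16 in B6 females. *Scn1a* in *APOE*3 females under nPM had 1 mouse (59) apart from the other 3, at 147 scaled CPM against 126 to 128. The gap took 0.9 of the range of the group, above Dixon's 95% critical value. This was 1 of 24 groups examined, and chance gives about 1 in 20.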

How the results depend on the processing

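No paired analysis was possible because the replicate numbers are animal numbers and the groups compared share fewer than 2 of them. edgeR on recovered reads was run only for *APOE*-TR fits, since reads of B6 mice are estimates. No called value changed sign in any alternative run. Counts of channel genes called moved as follows. For nPM over 48 mice the study's voom code and *APOE*-TR mice alone gave 0 in place of 2. For nPM in B6 males 0 were called without the mice of low length slope and 0 without the 2 controls low in excitatory markers, in place of 1. In *APOE*3 females no filter gave 1 and leaving out the low-slope mice 8, in place of 0. For the allele over 48 mice voom gave 2, the length covariate 0, *APOE*-TR mice alone 7, leaving out low-slope mice 0 and leaving out the 2 B6 male controls 2, in place of 1. In control females the length covariate gave 2, edgeR 2 and leaving out low-slope mice 8, in place of 6. In nPM females no TMM, voom, the length covariate and leaving out low-slope mice each gave 1 in place of 2. In nPM males no filter and the length covariate gave 0 in place of 1. For the sex difference no TMM gave 1, the length covariate 0, leaving out low-slope mice 0 and leaving out the 2 B6 male controls 1, in place of 2. For the allele difference of the response in females no filter gave 1 and leaving out low-slope mice 3, in place of 0. In the 32 *APOE*-TR mice the length covariate gave 3, edgeR 4 and leaving out low-slope mice 4, in place of 7, and edgeR called 1327 genes there in place of 1333. The causes were not tested.

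With each mouse left out in turn, the counts ranged from 2 to 3 for nPM over 48 mice, 1 to 2 in B6 females, 0 to 3 in B6 males (0 without control 0, 3 without control 3), 0 to 1 in *APOE*3 females (1 without nPM mouse 55), 0 to 0 in *APOE*3 males, 0 to 1 in *APOE*4 females and 0 to 2 in *APOE*4 males. For the allele they ranged from 0 to 2 over 48 mice, 4 to 8 over 32 mice, 2 (without *APOE*4 control 21) to 14 (without *APOE*3 control 52) in control females, 0 to 0 in control males, 0 to 3 in nPM females and 0 to 2 in nPM males. For differences of the response they ranged from 1 to 2 between the sexes, 0 to 10 between the alleles in females (10 without *APOE*3 control 52) and 0 to 0 in males. *Cacnb1* and *Cacnb3* over 48 mice were called without any 1 mouse. Over named genes and all alternatives, 1599 values kept their side of the threshold, 185 lost it and 8 gained it. Levels under 1 scaled CPM rest on few reads, which limits the precision for *Cacng6*, *Cacng1* and the sensory neuron pores.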

Other observations

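Genes near *Cacng6* that differed by allele included, beside those named above, *Pirb* (-0.57 ± 0.06), an immune receptor gene, and *Tmc4* (0.97 ± 0.12) in the 32 *APOE*-TR mice (limma, all past a 5% false discovery rate). Of the 6 genes tested within 2 Mb of *Cacna2d1*, 1 was called, the growth factor gene *Hgf* (-0.28), against 8.35% of all genes. These windows were chosen after the values were seen.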
